A study of Mus musculus with 20 samples.

Results

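The genes described here are 10 transcription factors of the SOX, ETS, basic helix-loop-helix and MADS-box families that are prominent in endothelial cells: Sox7, Sox17, Sox18, Erg, Fli1, Ets1, Ets2, Elk3, Tcf4 and Mef2c. They were listed by name, with earlier results of these data known, and make up 10 of the 18193 genes measured. RNA came from bone marrow cells of adult C57/Bl6 mice, 8 to 10 weeks old, which the labels call VE-cadherin+ endothelial cells, and was amplified and hybridized to 20 single-colour Affymetrix arrays. Mice were non-irradiated, or were taken 6 hours, 24 hours or 14 days after a total body dose of 5 Gy, with 5 arrays in each of the 4 groups. No transgene or agent other than radiation is named for any group. The arrays of a group are labelled biological replicates, without saying whether each is an animal or a pool, so the p-values measure only the spread between these samples.

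SOX7, SOX17 and SOX18 form the SOX group F, high-mobility-group proteins that bind DNA in the minor groove and act together in the specification of arteries, lymphatics and blood-forming endothelium. ETS proteins share a winged helix-turn-helix domain that recognizes a GGAA core, and nearly all known endothelial enhancers carry such cores. ERG and FLI1 keep differentiated endothelium in its identity, partly by driving VE-cadherin itself. TCF4 here is the E protein E2-2, a partner of other basic helix-loop-helix factors, and not the Wnt effector of the same nickname. MEF2C is a MADS-box factor downstream of flow and growth-factor signals and is controlled by class IIa histone deacetylases.

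From the RefSeq promoter table for mouse (build GRCm38.p6), 8 windows were taken for 4 of the 10 genes, Elk3, Erg, Ets2 and Mef2c. Tcf4 was left out of this step by its chromosome, so any window of that gene is not counted. Each window covers 300 bases, from 250 before to 50 after an annotated transcription start. The window of the most upstream annotated start of each of these 4 genes is shown. All 10 genes were called higher at 6 hours, so that call did not select these 4. GGAA was marked as the core that ETS proteins recognize, and Mef2c does not encode an ETS protein. The windows are chr10:93311110-93311409 on the minus strand for Elk3, chr16:95586544-95586843 on the minus strand for Erg, chr16:95702157-95702456 on the plus strand for Ets2 and chr13:83503784-83504083 on the plus strand for Mef2c. Capitals mark GGAA and its complement TTCC.
Elk3: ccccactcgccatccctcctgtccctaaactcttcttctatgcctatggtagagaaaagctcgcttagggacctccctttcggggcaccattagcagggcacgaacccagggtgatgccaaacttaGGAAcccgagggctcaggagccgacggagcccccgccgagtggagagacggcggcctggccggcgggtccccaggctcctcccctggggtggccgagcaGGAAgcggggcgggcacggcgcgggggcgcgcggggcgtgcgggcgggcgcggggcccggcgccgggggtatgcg
Erg: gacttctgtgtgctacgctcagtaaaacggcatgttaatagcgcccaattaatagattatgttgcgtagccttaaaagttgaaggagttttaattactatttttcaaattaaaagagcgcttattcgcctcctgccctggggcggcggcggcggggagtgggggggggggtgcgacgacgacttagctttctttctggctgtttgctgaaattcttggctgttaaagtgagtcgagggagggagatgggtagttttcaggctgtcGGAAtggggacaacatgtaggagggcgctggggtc
Ets2: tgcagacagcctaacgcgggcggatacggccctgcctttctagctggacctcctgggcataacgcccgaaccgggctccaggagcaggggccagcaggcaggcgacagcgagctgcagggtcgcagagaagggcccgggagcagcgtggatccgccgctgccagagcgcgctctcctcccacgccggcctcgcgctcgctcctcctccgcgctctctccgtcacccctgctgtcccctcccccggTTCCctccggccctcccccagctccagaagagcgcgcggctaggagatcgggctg
Mef2c: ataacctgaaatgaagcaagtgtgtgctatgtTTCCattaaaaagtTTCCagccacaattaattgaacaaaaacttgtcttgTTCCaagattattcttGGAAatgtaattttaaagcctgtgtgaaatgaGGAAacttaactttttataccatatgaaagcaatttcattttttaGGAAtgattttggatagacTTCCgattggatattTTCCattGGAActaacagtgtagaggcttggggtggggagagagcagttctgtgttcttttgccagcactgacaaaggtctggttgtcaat
Counting both strands, GGAA occurred 2 times in the Elk3 window, 1 time in that of Erg, 1 time in that of Ets2 and 9 times in that of Mef2c. Of all 32851 mouse promoter windows of the same length 96.0% hold GGAA, at 3.52 per window on average and 3 at the median. The longer form CGGAAG, which contains GGAA, was found 1 time in the Mef2c window and in none of the other 3 windows, against 16.9% of all windows. The SOX core ACAAT was found 1 time in the Mef2c window and in 31.0% of all windows. CANNTG, the E-box that E proteins recognize, was found 2 times in the Mef2c window and in 72.3% of all windows. The Elk3, Erg and Ets2 windows shown held neither ACAAT nor CANNTG. The counts depend on the start chosen. The 2 other Erg windows held 2 and 4 GGAA, and 1 of them held 2 ACAAT and 2 CANNTG. The 2 other Mef2c windows held 3 GGAA each and no ACAAT, and 1 of them held 1 CANNTG. These letter matches describe the windows and are not measured binding sites. Erg and Ets2 are neighbouring protein-coding genes in the same table's assembly, as are Fli1 and Ets1.

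Values are probe set signals, the brightness of a gene's brightest probe set after the authors' scaling of each array to a common trimmed mean of 500, and changes are differences of log2(signal + 1) ± SE. A gene is called where limma's Benjamini-Hochberg adjusted p over all 18193 genes is under 0.05. All 10 genes lay above the background of bacterial control probe sets (17.5 to 51.5) on all 20 arrays. The number of arrays limits the precision, and the 6-hour replicates were the least alike, with a median absolute log2 difference of 0.611 to 0.676 between arrays against 0.285 to 0.419 in the other groups. The hybridization controls were lower at 24 hours and day 14 (mean log2 11.68 to 12.17) than in the non-irradiated and 6-hour groups (12.40 to 12.82). The 3′ minus 5′ difference of the Gapdh control probe sets (log2), a sign of how complete the RNA and its copies were, was 1.27 to 1.36 without irradiation, 1.26 to 2.03 at 6 hours, 0.72 to 0.86 at 24 hours and 0.75 to 1.04 at day 14. It thus moved with the groups compared, and the part of both controls in the changes was not tested. The log2 of the array median differed from the non-irradiated mean by -0.25 at 6 hours, -0.38 at 24 hours and -0.90 at day 14, so centring arrays on their medians adds that size to each change. Every change below is under the deposited scaling unless another is named. The endothelial label was checked with 28 pan-endothelial markers, all above background in every group. Their summed signal was 33258 to 36716 in non-irradiated arrays, 99769 to 106206 at 6 hours, 51294 to 53821 at 24 hours and 18521 to 21109 at day 14. Markers of blood cells were on the same arrays, with 11 measured erythroid markers summing to 56904 to 62829, 6757 to 10384, 2515 to 3265 and 64207 to 75113 in the same order. The 8 measured granulocyte markers summed to 111585 to 128321, 83722 to 104526, 85299 to 109093 and 77308 to 98542. For 15 pan-leukocyte markers the sums were 60242 to 66938, 53636 to 61816, 58095 to 65251 and 49538 to 52835. The part of leukocytes in the values of the 10 genes was not tested. Fewer cells of a type and less RNA per cell cannot be told apart in such samples.

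All 3 SOX group F genes rose at 6 hours, and they parted from each other afterwards. Sox17, the factor of arterial and blood-forming endothelium, read 861, 1121, 927, 908 and 680 on the 5 non-irradiated arrays. At 6 hours it read 2094, 1999, 3393, 1479 and 1918, at 24 hours 1025, 559, 623, 762 and 696, and at day 14 only 104, 72.7, 134, 62.9 and 69.7. The 6-hour arrays all lay above the non-irradiated ones, the 24-hour arrays overlapped them, and every day 14 array lay below all others. The change was 1.24 ± 0.24 at 6 hours (adjusted p 0.00021, limma) and -0.31 ± 0.24 at 24 hours (adjusted p 0.363). Day 14 gave -3.37 ± 0.24, a signal 10.3-fold lower (adjusted p 1.53e-10, limma). The probe set chosen for Sox17 carries the suffix for possible cross-hybridization, and the other Sox17 probe set also fell at day 14 (-2.01 ± 0.34), while its 6-hour value of 0.81 ± 0.34 was not called (adjusted p 0.0862 in the limma fit of all probe sets).

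Sox7, which acts early in the blood and endothelial lineages, read 317, 294, 193, 153 and 268 on the non-irradiated arrays. Values were 1034, 1171, 970, 834 and 463 at 6 hours, 175, 292, 220, 229 and 173 at 24 hours, and 42.1, 80.9, 90.9, 61.3 and 104 at day 14. Each 6-hour array exceeded every non-irradiated array, and each day 14 array lay under all of them, while the 24-hour arrays fell within the non-irradiated range. Sox7 rose by 1.85 ± 0.30 at 6 hours (3.60-fold) and changed by -1.70 ± 0.30 at day 14, 3.24-fold lower. The 24-hour value of -0.14 ± 0.30 was not called (adjusted p 0.778, limma) and turned positive under other choices, 0.15 with quantile normalization and 0.53 for the second brightest probe set. With quantile normalization the day 14 value was -0.85 and missed the threshold (adjusted p 0.0563, limma).

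Sox18, mutated in a mouse strain with defects of coat and lymphatic vessels, kept its rise longer. Its non-irradiated readings were 1365, 1318, 1540, 1606 and 1507. They were 6092, 5384, 4942, 3533 and 5979 at 6 hours, 2847, 2339, 3332, 2917 and 2561 at 24 hours, and 1294, 1011, 1143, 1257 and 1043 at day 14. No array of an irradiated group overlapped the non-irradiated range, with 6 and 24 hours above it and day 14 just below it. The rise was 1.80 ± 0.13 at 6 hours (3.48-fold, adjusted p 1.11e-10) and 0.92 ± 0.13 at 24 hours (adjusted p 5.46e-06, limma). At day 14 the change of -0.35 ± 0.13 missed the threshold (adjusted p 0.0592), and it was called in limma fits with quantile normalization (-0.46), with dim genes left out, and with array weights, but read 0.54 with arrays centred on their medians.

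**Figure D1:**
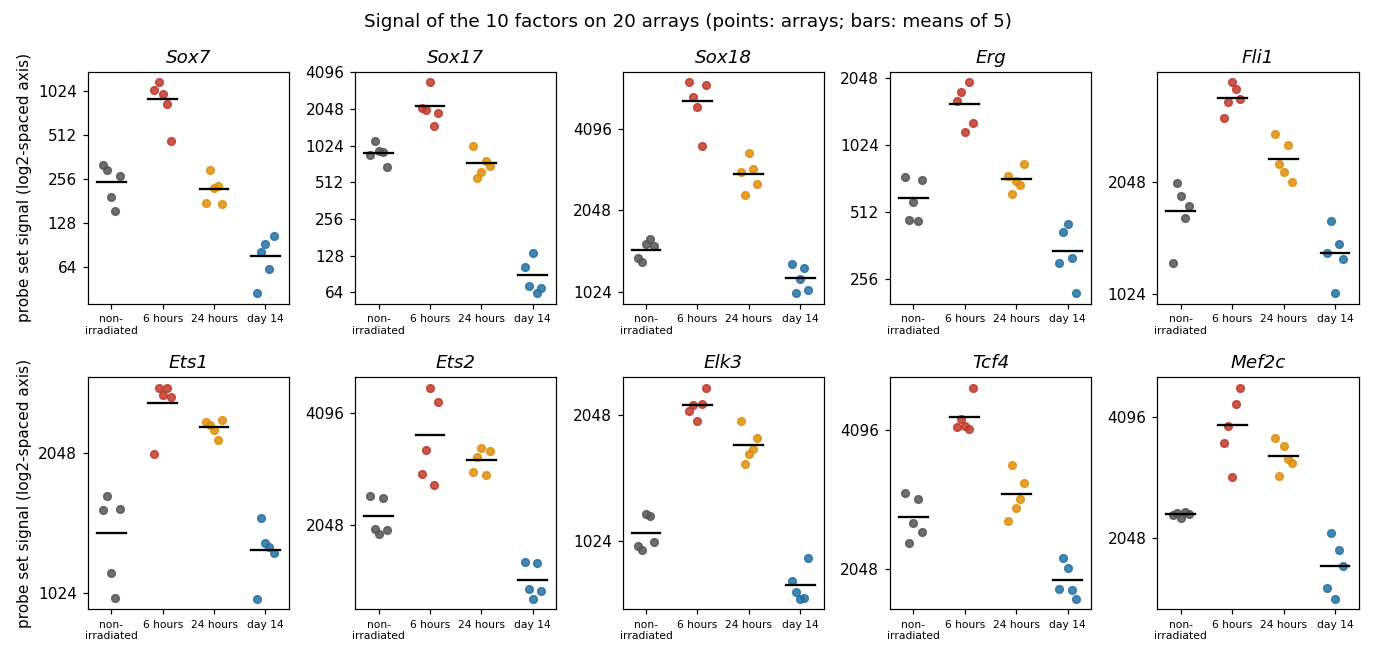
Probe set signal (log2-spaced axis) of each of the 10 factors on the 20 arrays, by group, with 1 point per array and a bar at the mean of 5. All 6-hour points lie above all non-irradiated points for each gene under the deposited scaling, and Sox17 lies between 62.9 and 134 at day 14, below its other 15 points.

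Erg and Fli1, the paired ETS factors of endothelial identity that are also active in megakaryocytes and stem cells, rose together at 6 hours. Erg read 732, 473, 565, 464 and 715 on non-irradiated arrays and 1605, 1767, 1165, 1954 and 1289 at 6 hours. At 24 hours it read 743, 619, 704, 678 and 845, and at day 14 it read 303, 418, 451, 319 and 221. The 6-hour group was clear above and the day 14 group clear below the non-irradiated range, with 2 of the 24-hour arrays above that range. Erg rose by 1.40 ± 0.20 at 6 hours (2.64-fold, adjusted p 7.01e-06, limma). Its 24-hour value of 0.30 ± 0.20 was not called (adjusted p 0.296), although it was with arrays centred on their medians (0.69). The day 14 change of -0.80 ± 0.20 was called (adjusted p 0.00645, limma), but it was -0.53 and not called with quantile normalization and read 0.10 with median centring.

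Fli1 read 1236, 2037, 1869, 1638 and 1762 on non-irradiated arrays, and 3029, 3347, 3786, 3630 and 3416 at 6 hours. It read 2749, 2285, 2170, 2563 and 2041 at 24 hours and 1314, 1604, 1027, 1391 and 1268 at day 14. Both early groups stayed above every non-irradiated array, at 24 hours by a narrow margin, and the day 14 group overlapped them. Fli1 rose by 1.03 ± 0.14 at 6 hours (2.04-fold, adjusted p 1.57e-06) and by 0.48 ± 0.14 at 24 hours (adjusted p 0.00828, limma). At day 14 it read -0.37 ± 0.14, short of the threshold (adjusted p 0.0534), and its second probe set was called at -0.53 ± 0.12. Without non-irradiated replicate 1, the lowest of its group, the day 14 value was -0.48 and called (adjusted p 0.0114, limma). With arrays centred on their medians it read 0.53.

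ETS1, a regulator of vessel growth and of lymphocytes, kept most of its early rise to 24 hours. Ets1 read 1548, 1660, 1131, 997 and 1549 on non-irradiated arrays and 2038, 2842, 2737, 2834 and 2716 at 6 hours. It read 2398, 2363, 2303, 2190 and 2419 at 24 hours and 994, 1487, 1311, 1287 and 1247 at day 14. The 6-hour and 24-hour arrays all exceeded the non-irradiated ones, which the day 14 arrays overlapped. Changes were 0.95 ± 0.14 at 6 hours (adjusted p 9.72e-06), 0.79 ± 0.14 at 24 hours (adjusted p 9.69e-05) and -0.11 ± 0.14 at day 14 (adjusted p 0.628, limma), the last turning to 0.79 with arrays centred on their medians. ETS2 is a target of RAS and ERK signals. Ets2 signals had a mean of 2160 ± 254 (SD, n = 5) without irradiation, 3571 ± 965 at 6 hours, 3058 ± 229 at 24 hours and 1460 ± 155 at day 14. The lowest 6-hour array (2620) still exceeded the highest non-irradiated array (2448), and the highest at day 14 (1634) lay below the lowest of them (1941). Ets2 rose by 0.69 ± 0.14 at 6 hours and 0.51 ± 0.14 at 24 hours, and changed by -0.56 ± 0.14 at day 14 (adjusted p 0.00535, limma). Its other 2 probe sets, dimmer (means from 57.1 to 249), were not called at 6 or 24 hours, and median centring gave 0.34 at day 14.

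ELK3, a ternary complex factor that represses targets of serum response factor until ERK phosphorylates it, had tight groups. Elk3 read 996, 973, 1191, 1177 and 1021 on non-irradiated arrays, 2101, 2172, 1979, 2173 and 2384 at 6 hours, 1983, 1564, 1657, 1700 and 1803 at 24 hours, and 821, 774, 746, 748 and 931 at day 14. None of the irradiated groups overlapped the non-irradiated one. Elk3 rose by 1.01 ± 0.12 at 6 hours (2.02-fold, adjusted p 2.24e-07) and 0.70 ± 0.12 at 24 hours (adjusted p 3.9e-05, limma). Its second brightest probe set gave 0.37 at 24 hours, which was not called. The day 14 change of -0.41 ± 0.12 (adjusted p 0.0133, limma) turned to 0.49 with arrays centred on their medians.

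Tcf4, also a defining factor of plasmacytoid dendritic cells, read 2989, 2331, 2570, 2891 and 2461 on non-irradiated arrays and 4145, 4332, 4163, 4119 and 5054 at 6 hours. At 24 hours its range was 2597 to 3439, overlapping the non-irradiated arrays, and at day 14 it was 1763 to 2160, below all of them. Its changes were 0.72 ± 0.10 at 6 hours (adjusted p 4.91e-06), 0.16 ± 0.10 at 24 hours (adjusted p 0.257) and -0.45 ± 0.10 at day 14 (adjusted p 0.0026, limma). Median centring made the 24-hour value 0.55, which was called, and the day 14 value 0.45. The 7 plasmacytoid dendritic cell markers summed to 1571 to 1971 without irradiation and 1549 to 2096 at 6 hours, and 1 of them was called higher and 1 lower at 6 hours. At day 14 they summed to 1200 to 1686, with 1 called higher and 3 lower, and their part in the Tcf4 value was not tested.

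Mef2c was the most even of the 10 genes before irradiation, with 2339, 2362, 2299, 2384 and 2359. It read 3518, 3894, 2912, 4408 and 4834 at 6 hours, 3631, 2929, 3474, 3222 and 3140 at 24 hours, and 1541, 2106, 1453, 1913 and 1745 at day 14. The irradiated groups each lay clear of the non-irradiated readings, above them at both early times and below them at day 14. The changes were 0.71 ± 0.12 (adjusted p 5.99e-05), 0.48 ± 0.12 (adjusted p 0.00383) and -0.44 ± 0.12 (adjusted p 0.0123, limma), the last becoming 0.46 with arrays centred on their medians. Mef2c is also expressed by B cells, whose 10 measured markers had 2 called higher and 2 lower at 6 hours, 1 higher and 6 lower at 24 hours and none at day 14. Their part in the Mef2c values was not tested.

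Counted as a group, all 10 genes were called higher at 6 hours, where 12.9% of all genes were called higher and 14.5% lower. All 10 also had 5 irradiated arrays above all 5 non-irradiated arrays, as did 7.59% of all genes. The median change of the 10 was 1.02, against -0.022 over all genes. At 24 hours 6 of the 10 were called higher (Sox18, Fli1, Ets1, Ets2, Elk3 and Mef2c) and none lower, against 15.7% and 13.8% of all genes. The same 6 had no overlap with the non-irradiated arrays, as had 15.1% of all genes in that direction. Their median change over all 10 was 0.48, against -0.073. At day 14 none was called higher and 7 were called lower (Sox7, Sox17, Erg, Ets2, Elk3, Tcf4 and Mef2c), against 9.47% and 13.0% of all genes. The day 14 arrays lay wholly below for 8 of the 10 (those 7 and Sox18), as for 11.6% of all genes. The median change was -0.44, against -0.18. With arrays centred on their medians, however, 6 of the 10 were called higher at day 14 and 2 lower, Sox7 and Sox17, and the day 14 calls over all genes, 1723 of 4082 higher as deposited, became 8210 of 8671 higher (45.1% of all genes higher and 2.53% lower). Under quantile normalization they were 1784 of 2920. Median centring also moved the 6-hour calls from 2343 of 4983 higher to 3531 of 5148, and the 24-hour calls from 2861 of 5374 to 4950 of 6089. The F test over the 4 groups called all 10, as it did 55.1% of all genes. The 3 comparisons share the non-irradiated arrays.

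**Figure D2:**
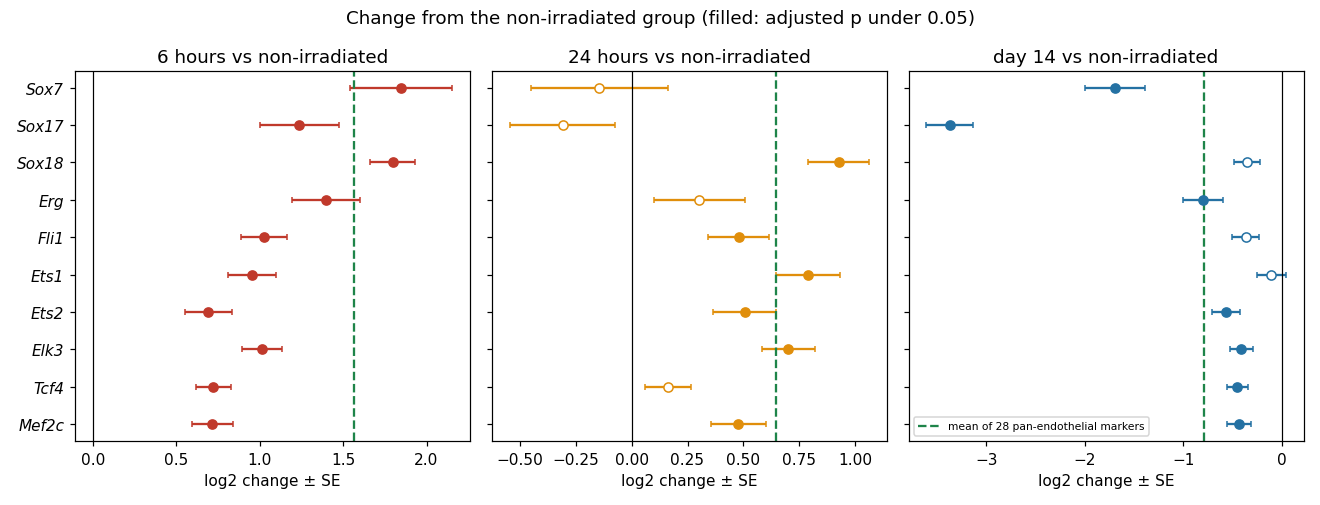
Log2 change ± SE of each factor from the non-irradiated group at 6 hours, 24 hours and day 14, with filled points where limma's adjusted p was under 0.05 and a dashed line at the mean change of 28 pan-endothelial markers (1.57, 0.64 and -0.79). Under the deposited scaling all 10 points are filled at 6 hours, 6 at 24 hours and 7 at day 14, and Sox17 at -3.37 lies farthest from 0 at day 14.

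The irradiated groups were also compared with each other. From 6 to 24 hours 6 genes were called lower, where 10.1% of all genes were. These were Sox7 (-1.99 ± 0.30), Sox17 (-1.55 ± 0.24), Erg (-1.10 ± 0.20), Sox18 (-0.87 ± 0.13), Tcf4 (-0.56 ± 0.10) and Fli1 (-0.55 ± 0.14), and their 5 later arrays lay below all 5 earlier ones. Ets1 (-0.16 ± 0.14), Ets2 (-0.19 ± 0.14), Mef2c (-0.24 ± 0.12) and Elk3 (-0.31 ± 0.12) were not called. Elk3 was near the threshold (adjusted p 0.0554, limma). It passed without 24-hour replicate 1 or 6-hour replicate 3, and Mef2c also passed without that 6-hour array (-0.34, adjusted p 0.0336, limma). From 24 hours to day 14 all 10 were called lower, from -0.62 for Tcf4 to -3.06 for Sox17, where 21.7% of all genes were. From 6 hours to day 14 all 10 were again called lower, from -1.06 for Ets1 to -4.61 for Sox17 (24.4-fold), where 25.0% of all genes were. With each array centred on its pan-endothelial marker mean, 6 of the 10 (Fli1, Ets1, Ets2, Elk3, Tcf4 and Mef2c) were instead called higher in each of these 3 comparisons. The share of all genes called higher was 53.9%, 58.7% and 81.9%, so that of the 10 is near or below it. Sox17 was still called lower on this scale in all 3 (-0.62, -1.62 and -2.24). Sox7 was called lower from 6 to 24 hours (-1.07) and from 6 hours to day 14 (-1.18). Only 1.08%, 1.09% and 0.671% of all genes were called lower.

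Of the 28 pan-endothelial markers 27 were called higher at 6 hours and 15 at 24 hours, and 18 were called lower and 1 higher at day 14, under the deposited scaling. Of all genes 12.9% and 15.7% were called higher at 6 and 24 hours, and 13.0% lower and 9.47% higher at day 14. Cdh5, which encodes VE-cadherin, changed by 1.49 ± 0.12, 0.63 ± 0.12 and -1.31 ± 0.12 at the 3 times. Pecam1, another junction protein, read 1.42 ± 0.18, 0.39 ± 0.18 and -1.60 ± 0.18, the second of which was not called, and the leukocyte marker Ptprc changed by -0.83 ± 0.11, -0.33 ± 0.11 and -0.81 ± 0.11. The factors were therefore also read relative to the mean log2 of the 28 markers of the same array. At 6 hours none of the 10 was called higher on this scale and 6 were called lower: Ets2 (-0.88 ± 0.15), Mef2c (-0.85 ± 0.13), Tcf4 (-0.85 ± 0.11), Ets1 (-0.62 ± 0.15), Elk3 (-0.55 ± 0.12) and Fli1 (-0.54 ± 0.15). Over all genes 0.621% were called higher and 79.7% lower on this scale. Sox7 (0.28 ± 0.30), Sox18 (0.23 ± 0.14), Erg (-0.17 ± 0.21) and Sox17 (-0.33 ± 0.25) were not called. At 24 hours Sox17 (-0.95 ± 0.25), Sox7 (-0.79 ± 0.30, adjusted p 0.0351, limma) and Tcf4 (-0.48 ± 0.11) were called lower and none higher, against 41.3% and 5.24% of all genes. At day 14 Sox17 (-2.57 ± 0.25, adjusted p 4.35e-09, limma) and Sox7 (-0.90 ± 0.30) were called lower, against 2.92% of all genes. Ets1 (0.69 ± 0.15), Sox18 (0.44 ± 0.14), Fli1 (0.43 ± 0.15), Elk3 (0.38 ± 0.12), Mef2c (0.36 ± 0.13) and Tcf4 (0.34 ± 0.11) were called higher, as were 41.4% of all genes. Erg read -0.0034 ± 0.21 at day 14 and was not called at any of the 3 times on this scale.

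**Figure D3:**
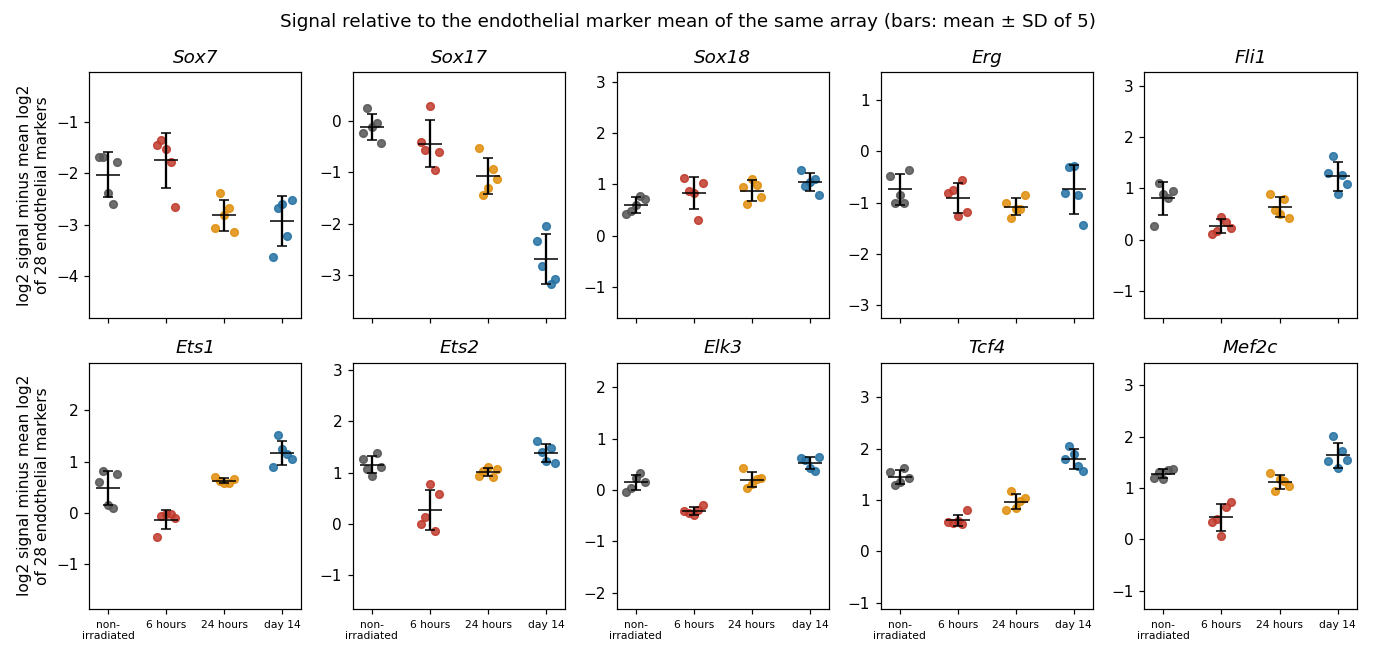
Log2 signal of each factor minus the mean log2 signal of 28 pan-endothelial markers of the same array, by group, with 1 point per array and bars at mean ± SD of 5, and panels of equal height. Sox17 goes from a mean of -0.12 without irradiation to -2.69 at day 14, while Erg stays between group means of -0.74 and -1.08.

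A factor that multiplies a whole array leaves differences within it nearly unchanged, whereas quantile normalization can alter them. In this way 5 pairs of genes were compared at 3 times under the deposited scaling, 15 tests in all. The Sox17 minus Sox18 difference was -0.72 ± 0.33 (SD, n = 5) without irradiation, -1.95 ± 0.34 at 24 hours and -3.73 ± 0.44 at day 14. Both later groups lay wholly below the non-irradiated one (two-sided exact permutation p 0.00794, the smallest that 5 against 5 arrays allow, and 0.0397 after Benjamini-Hochberg adjustment). Its 6-hour change of -0.56 was not called (adjusted exact p 0.159). Sox17 minus Sox7 changed by -1.67 at day 14 (adjusted exact p 0.0397) and by -0.16 at 24 hours (adjusted exact p 0.76). Sox18 minus Sox7 rose by 1.07 at 24 hours and 1.34 at day 14, with some overlap of arrays (exact permutation p 0.0159, adjusted 0.0476, both times). At day 14, as deposited and in the brightest probe sets, Sox17 thus stood apart from both other genes with no overlap of arrays. Sox7 and Sox18 differed in the test with overlapping arrays. The Sox17 probe set used is the one with the suffix for possible cross-hybridization. The other Sox17 probe set read -2.01 ± 0.34 at day 14, nearer to the Sox7 probe sets (-1.70 ± 0.30 and -1.54 ± 0.46). The pairs were not tested with that probe set. With quantile normalization the day 14 changes of Sox7 (-0.85) and Sox18 (-0.46) lay closer together than as deposited, and the pairs were not tested under that setting. For the neighbours Fli1 and Ets1 the difference changed by 0.073, -0.31 and -0.26 at the 3 times, and for Erg and Ets2 by 0.71, -0.20 and -0.24. None of these 6 passed, the smallest adjusted exact p being 0.17.

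**Figure D4:**
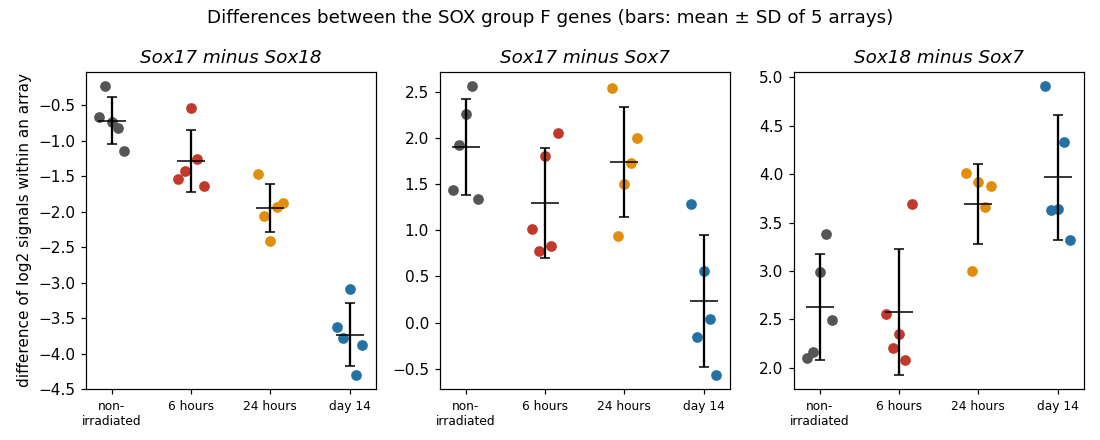
Difference of log2 signals within an array for the 3 pairs of SOX group F genes, by group, with 1 point per array and bars at mean ± SD of 5. The Sox17 minus Sox18 points fall from a mean of -0.72 without irradiation to -3.73 at day 14 with no overlap of those groups.

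The 10 genes have 31 probe sets named for them, from 1 for Sox18 to 6 for Tcf4. In a limma fit of every probe set, all 31 had a positive value at 6 hours and 25 of them were called higher, where 43.6% of all probe sets were positive and 9.33% called higher. At 24 hours 25 were positive and 15 called higher, against 38.7% and 11.5% of all probe sets. At day 14 all 31 were negative and 20 called lower, against 68.5% and 23.1% of all probe sets. The 4 Ets1 probe sets read 0.79 to 0.84 at 24 hours, and all were called. The 5 Mef2c probe sets read 0.71 to 1.25 at 6 hours. Elk3's dimmest probe set (mean 198 without irradiation) read 0.20 ± 0.47 at 6 hours, not called, against 0.89 to 1.01 for its other 3. The sixth Tcf4 probe set was at or under background on 10 of 20 arrays and was not called at any time.

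**Figure D5:**
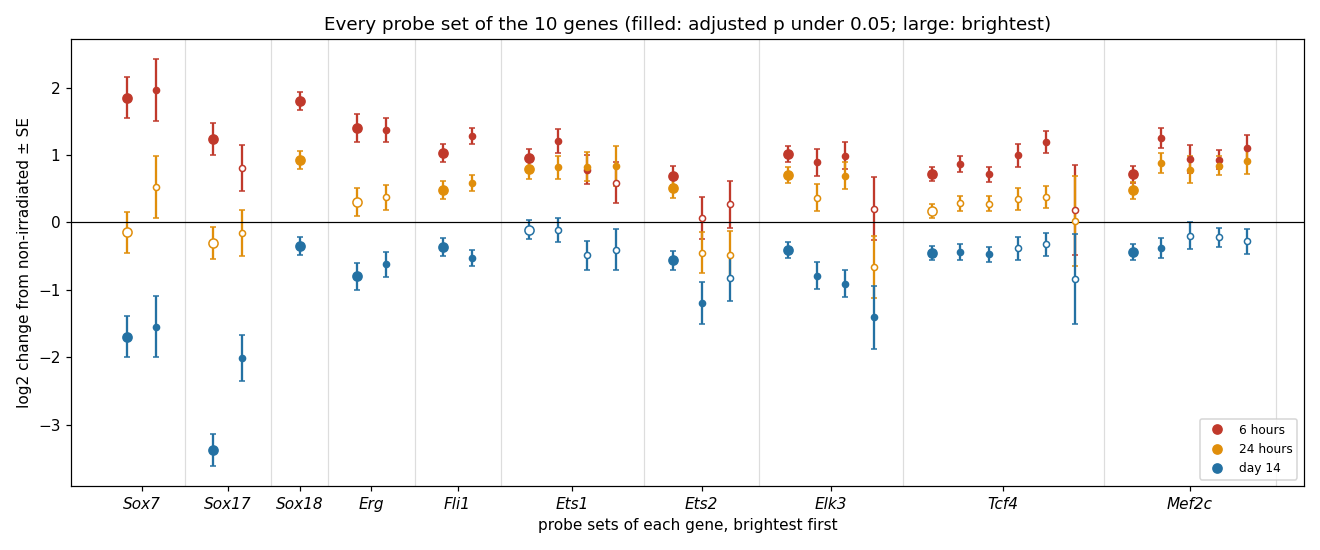
Log2 change ± SE from the non-irradiated group for each of the 31 probe sets of the 10 genes, brightest first within a gene, at 6 hours, 24 hours and day 14, filled where limma's adjusted p was under 0.05. At 6 hours 25 of 31 points are filled and above 0, and at day 14 20 of 31 are filled and below 0, under the deposited scaling, against 9.33% and 23.1% of all probe sets called in those directions.

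Of 24 genes known as targets of ETS and SOX group F factors in endothelium, 15 of which are also among the pan-endothelial markers, 21 were called higher and none lower at 6 hours. The largest changes were in Robo4 (2.08 ± 0.14), a guidance receptor that stabilizes vessels, Flt4 (1.84 ± 0.10), the VEGF-C receptor of sinusoids and lymphatics, and Vwf (1.82 ± 0.17), which encodes von Willebrand factor. At 24 hours 9 were called higher and none lower, led by Clec14a (1.87 ± 0.32), a cell surface lectin of endothelium, Aplnr (1.19 ± 0.22), the apelin receptor, and Ephb4 (1.07 ± 0.17), a vein marker. At day 14 none was called higher and 16 lower. These were led by Nos3 (-2.86 ± 0.32), endothelial nitric oxide synthase, Flt1 (-2.13 ± 0.11), a VEGF receptor, and Notch4 (-1.81 ± 0.27). Over all genes 12.9% were called higher and 14.5% lower at 6 hours. The shares were 15.7% and 13.8% at 24 hours, and 9.47% and 13.0% at day 14. The list's median was 1.42, 0.37 and -0.95 at the 3 times. With arrays centred on the pan-endothelial mean the list split into 2 higher and 8 lower at 6 hours and 6 higher and 9 lower at day 14. Of all genes 0.621% and 79.7% were called higher and lower at 6 hours and 41.4% and 2.92% at day 14. Since 15 of the 24 genes are part of the mean subtracted, the split is partly built in and cannot be weighed against those shares. Median centring gave 6 higher and 8 lower at day 14, against 45.1% and 2.53% of all genes. Megakaryocytes also express Erg, Fli1 and Vwf. Their 10 measured markers summed to 13605 to 15768 without irradiation, 38337 to 46962 at 6 hours, 20569 to 21707 at 24 hours and 11362 to 12540 at day 14. Of these, 9 were called higher at 6 hours, 7 higher at 24 hours and 6 lower at day 14, and none was at background on all 5 arrays of a group. Their part in the values of Erg, Fli1 and Vwf was not tested.

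Among the other ETS factors, 19 of 20 measured, 6 were called higher and 1 lower at 6 hours, 4 and 2 at 24 hours, and none and 4 at day 14. Their median change at 6 hours was 0.37. Over all genes 12.9% were called higher and 14.5% lower at 6 hours. The shares were 15.7% and 13.8% at 24 hours, and 9.47% and 13.0% at day 14. Spib, a factor of B cells and plasmacytoid dendritic cells, changed by -1.63 ± 0.48 at 6 hours and -1.85 ± 0.48 at 24 hours. Etv5, a target of FGF signals, rose by 1.71 ± 0.47 at 24 hours, and Erf, an ERK-controlled repressor, rose by 1.02 ± 0.36 and 1.10 ± 0.36 at 6 and 24 hours. Spic, a factor of iron-recycling macrophages, read 2.50 ± 0.62 at 6 hours from a signal at background on 3 of 5 non-irradiated arrays. At day 14 Elf3 (-1.77 ± 0.61), which was at background on 4 of 5 arrays, Etv4 (-1.24 ± 0.41) and Etv6 (-0.44 ± 0.14), a repressor needed in marrow blood formation, were called lower. With arrays centred on their medians none of the list was lower and 11 were higher at day 14, against 2.53% and 45.1% of all genes.

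Of the 16 other SOX genes 1 was called higher and 2 lower at 6 hours, 2 and 2 at 24 hours, and 1 and 2 at day 14. These counts were near or below the shares of all genes, 12.9% and 14.5%, 15.7% and 13.8%, and 9.47% and 13.0%. With arrays centred on their medians the day 14 counts became 4 higher and none lower, against 45.1% and 2.53% of all genes. Sox6, which silences embryonic globin in red cell precursors, had a signal of 705 ± 25.2 (SD, n = 5) without irradiation, 61.4 ± 28.6 at 6 hours, 40.1 ± 14.7 at 24 hours and 1264 ± 98.2 at day 14. All 11 measured erythroid markers were called lower at 6 and at 24 hours, when Rhag was at background, and 2 were called higher and none lower at day 14, and their part in the Sox6 values was not tested. Sox9, a cartilage and progenitor factor, rose by 1.82 ± 0.39 at 24 hours, and Sox4, active in lymphoid and progenitor cells, rose by 0.93 ± 0.16 at 6 hours. Of the 10 measured stromal and osteoblast markers 7 were called higher and 2 lower at 24 hours, and their part in the Sox9 value was not tested. Sox13 changed by -0.998 ± 0.20 at day 14, and Sox30 was called lower at each time but lay at background on 3 non-irradiated and all irradiated arrays.

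Partners of MEF2C and TCF4 were called higher in 6 and lower in 1 of 14 at 6 hours, 4 and 1 at 24 hours, and 2 and 3 at day 14 (7 and none with arrays centred on their medians). Over all genes 12.9% were called higher and 14.5% lower at 6 hours. The shares were 15.7% and 13.8% at 24 hours, and 9.47% and 13.0% at day 14 (45.1% and 2.53% with median centring). The ID proteins, which bind E proteins such as TCF4 and keep them off DNA, made up 4 of the 6 rises at 6 hours and 3 of the 4 at 24 hours. Id3 rose by 1.20 ± 0.09 at 6 hours and 1.48 ± 0.09 at 24 hours, Id1 rose by 1.33 ± 0.17 at 24 hours, and Id2 (0.83 ± 0.18) and Id4 (0.79 ± 0.08) rose at 6 hours. At day 14 Id1 changed by -0.89 ± 0.17 and Id3 by 0.59 ± 0.09, both called, while Id2 (0.16 ± 0.18) and Id4 (0.08 ± 0.08) were not called. Tcf3, which encodes the E protein E2A, changed by -0.75 ± 0.16 at 6 hours, -1.004 ± 0.16 at 24 hours and 0.59 ± 0.16 at day 14. Hdac4, a class IIa deacetylase that represses MEF2 proteins, changed by -0.63 ± 0.22 at day 14.

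The genes most like each factor were sought among 8908 genes of above-median signal by the root mean square difference of gene-centred log2 values over the 20 arrays, where a smaller value is a closer course. Esam, an endothelial adhesion molecule, lay closest to Sox7 (0.43), followed by Jak3 (0.48). Mcf2l (0.47) and Timp4 (0.52) lay closest to Sox17, a larger value than that of the closest gene of any of the other 9. Tfpi (0.22), the tissue factor pathway inhibitor, and Pf4 (0.22), a platelet chemokine, lay closest to Sox18. Plek (0.26), which encodes the platelet protein pleckstrin, and Adgrg3 (0.30) lay closest to Erg. For Fli1 these were Nrp2 (0.21), a receptor of VEGF and semaphorins, and Zbtb4 (0.21), and for Ets1 Mmp13 (0.20) and Tob1 (0.22). Ets2 had Spag9 (0.16) and Nisch (0.20), and Elk3 had Tef (0.15) and Synpo (0.17). Zeb2 was among the closest genes of both Tcf4 (0.15, with Pxn 0.15) and Mef2c (0.20, with Ptprs 0.18). Within the group itself Elk3 and Mef2c lay closest (0.21) and Sox17 was farthest from its nearest member, Sox7 (0.85). The mean of the 28 pan-endothelial markers lay closest to Sox18 (0.25) and farthest from Sox17 (1.05).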

How the data were processed

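Signals of 45101 probe sets on 20 Affymetrix arrays were used as the authors deposited them, as linear intensities that the authors had scaled to a mean of 500 per array, after trimming 2% of values from either end (read from the values). Affymetrix Expression Console and Transcriptome Analysis Console are named in the submitters' processing notes. The summarization and background steps are not given in the sources used here. Per the labels, RNA was extracted with a column kit and amplified before biotin labelling.

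Of the probe sets, 34945 had 1 gene symbol in the platform annotation, 932 several and 9160 none, and 64 were controls. Of a gene's probe sets the brightest by mean log2(signal + 1) was taken, giving 18193 genes with no filter on low signals. Limma 3.58.1 in R 4.3.3 (lmFit, eBayes with an intensity trend) fitted the 4 groups on all 20 arrays, and calls needed an adjusted p (Benjamini-Hochberg, two-sided, all genes together) under 0.05. The fit was tested on simulated data. Pairs of genes were compared by exact permutation. The background of an array was the 95th percentile of 27 probe sets for bacterial genes. From each gene list the text names up to 3 called genes with the largest change at each time, and for each factor the 2 nearest genes, beside Cdh5, Pecam1 and Ptprc among the markers. Values of the ID genes and Tcf3 are also given at further times. Figures used Python 3.11.15 and matplotlib 3.10.9. The factors, lists, markers and rules were chosen with earlier results of these data known.

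Samples that share a replicate number did not vary together. The correlation of their deviations from the group means ran from -0.0665 to 0.0493 over 30 pairs, so the numbers were not used as pairs. The settings tried were quantile normalization, 2 centrings of the arrays, leaving out dim genes, other choices of probe set, a replicate block, array weights, no intensity trend, an addition of 16, a threshold of 0.01, fits of 2 groups alone and leaving out each array.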

Additional observations from a re-analysis of the deposited data

Results flagged for a closer look

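In 2 of 40 groups of 5 signals an array stood far from the other 4, where chance alone marks about 1 group in 20. Ets1 at 6 hours read 2038 in replicate 1 against 2716 to 2842 in the others. Tcf4 at 6 hours read 5054 in replicate 5 against 4119 to 4332. Both genes were called higher at 6 hours without these arrays as well.

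The irradiated groups differed from each other in 26 of 30 direct tests in limma, under the deposited scaling. The 3 comparisons share arrays, so the tests are not independent. Among all genes 10.1% were called lower from 6 to 24 hours, 21.7% from 24 hours to day 14 and 25.0% from 6 hours to day 14. With arrays centred on the pan-endothelial mean, 6 of the 10 genes were called higher in each comparison. The log2 changes from 6 to 24 hours were Sox7 -1.99, Sox17 -1.55, Sox18 -0.87, Erg -1.10, Fli1 -0.55 and Tcf4 -0.56. From 24 hours to day 14 they were Sox7 -1.55, Sox17 -3.06, Sox18 -1.28, Erg -1.10, Fli1 -0.84, Ets1 -0.89, Ets2 -1.07, Elk3 -1.11, Tcf4 -0.62 and Mef2c -0.91. From 6 hours to day 14 they were Sox7 -3.54, Sox17 -4.61, Sox18 -2.15, Erg -2.20, Fli1 -1.39, Ets1 -1.06, Ets2 -1.25, Elk3 -1.43, Tcf4 -1.17 and Mef2c -1.15.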

How the results depend on the processing

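The 60 results of the 10 genes in the 6 comparisons were recomputed under each setting. Of these, 45 kept direction and side of the threshold under all settings other than the 2 centrings, and 6 under those as well. Leaving out each array in turn kept the counts of called genes at 10 for 6 hours, 6 for 24 hours, 7 to 8 for day 14, 6 to 8 for 24 against 6 hours and 10 for the rest. The 8 results that changed side all became calls, among them Sox18 at day 14 without 6-hour replicate 4 (adjusted p 0.0228, limma) and Fli1 at day 14 without day 14 replicate 2 (adjusted p 0.0313, limma). With the replicate number as a block ("replicate block") the counts were 10, 6, 7, 6, 10 and 10, and no call of the 10 genes changed. The numbers give no pairing, since 0 of 30 same-numbered pairs correlated over 0.1 and 4 of 20 arrays correlated best with their own number. Sox17 has no probe set left once those with names ending in _x_at, _s_at or _a_at are dropped, so that setting covers the other 9 genes.

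Centring each array on its pan-endothelial mean subtracts the markers' own change and so turns many signs. The called genes became 6 at 6 hours, all lower, and 3 at 24 hours, all lower, where 79.7% and 41.3% of all genes were called lower. The turned log2 changes at 6 hours were Sox17 -0.33, Erg -0.17, Fli1 -0.54, Ets1 -0.62, Ets2 -0.88, Elk3 -0.55, Tcf4 -0.85 and Mef2c -0.85, at 24 hours Erg -0.34, Fli1 -0.17, Ets2 -0.14, Tcf4 -0.48 and Mef2c -0.17, and at day 14 Sox18 0.44, Fli1 0.43, Ets1 0.69, Ets2 0.23, Elk3 0.38, Tcf4 0.34 and Mef2c 0.36. They were Sox18 0.049, Fli1 0.38, Ets1 0.76, Ets2 0.74, Elk3 0.61, Tcf4 0.36 and Mef2c 0.69 for 24 against 6 hours. For day 14 against 24 hours they were Sox18 0.16, Erg 0.34, Fli1 0.60, Ets1 0.55, Ets2 0.37, Elk3 0.33, Tcf4 0.82 and Mef2c 0.53, and against 6 hours Sox18 0.21, Erg 0.16, Fli1 0.97, Ets1 1.30, Ets2 1.11, Elk3 0.93, Tcf4 1.19 and Mef2c 1.21. Centring on array medians turned Sox7 0.24 and Sox17 0.073 at 24 hours, and Sox18 0.54, Erg 0.10, Fli1 0.53, Ets1 0.79, Ets2 0.34, Elk3 0.49, Tcf4 0.45 and Mef2c 0.46 at day 14. At 24 hours Sox7 turned to 0.15 with quantile normalization, to 0.19 as the mean of its probe sets and to 0.53 with its second probe set. Ets2 turned to -0.14 and -0.45 under the last 2 of these, and the cause was not tested.

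Over all genes, calls moved by more than 1.5 times from 4983 (6 hours), 5374 (24 hours) and 4082 (day 14) to 14608, 8461 and 8058 with the pan-endothelial centring. Day 14 also gave 8671 with median centring, 6242 with array weights, 6147 with only the 2 groups compared and 2152 at an adjusted p under 0.01. The pan-endothelial centring moved 4324 to 10011 (24 against 6 hours), 6709 to 10880 (day 14 against 24 hours), 8164 to 15029 (day 14 against 6 hours) and 10032 to 15529 (F test), and the stricter threshold moved 4324 to 2713.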

Other observations

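Among 26 other endothelial transcription factors, 9 were called higher and 3 lower at 6 hours, 5 and 4 at 24 hours, and 2 and 8 at day 14, in limma's fit. Over all genes 12.9% were called higher and 14.5% lower at 6 hours. The shares were 15.7% and 13.8% at 24 hours, and 9.47% and 13.0% at day 14. Foxo1, a factor held back by AKT signals, rose by 1.35 ± 0.19 at 6 hours, and Nr2f2, which sets vein identity, rose by 1.29 ± 0.18. Hey2, an artery factor, changed by -2.02 ± 0.56 at 6 hours, when 4 of 5 arrays lay at background. Hey1, a Notch target, rose by 1.29 ± 0.25 at 24 hours. Tal1 and Lmo2, shared by endothelium and red cell precursors, changed by -2.82 ± 0.22 and -1.56 ± 0.11 at 24 hours, when all 11 measured erythroid markers were called lower; their part in these values was not tested.

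At day 14 the largest changes of that list were in Tcf15 (-2.41 ± 0.23), a factor of capillary endothelium in heart and muscle, Meox2 (-2.32 ± 0.54), its partner, and Tbx3 (-2.24 ± 0.48). Tcf15 had a signal of 1273 ± 249 (SD, n = 5) without irradiation and 242 ± 68.6 at day 14. With arrays centred on their medians the list had 14 called higher and 5 lower at day 14, and with the pan-endothelial centring also 14 and 5, where 45.1% and 41.4% of all genes were called higher and 2.53% and 2.92% lower.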
